A study of Mus musculus with 4 samples.

Results

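The genes described here encode the proteins of the cytosolic ribosome and the factors that start and extend protein synthesis on it, measured in mouse liver. They were taken as all probe sets whose 1 annotated symbol begins with Rpl, Rps, Eif or Eef. The Eif2ak and Rps6k kinases and Eif2s3y were left out. This gave 110 probe sets for 79 genes, out of 12422 probe sets and 8251 genes on the array, with 35 ribosomal protein genes (49 probe sets) and 44 genes of translation factors and their regulators (61 probe sets). A further 40 probe sets carry several symbols, 1 of them from these families, and were not used because no single gene can be named for them.

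Total liver RNA was hybridised to Affymetrix MG_U74Av2 arrays, 2 for wild-type and 2 for PEPCK-TAg mice. All were male B6SJL hybrids of 58 to 60 days that had eaten freely, for 4 weeks after weaning, a diet of 10% protein and 70% carbohydrate. PEPCK-TAg mice carry the large T and small t antigens of SV40 under the promoter of Pck1, a gene of gluconeogenesis that is active in liver and kidney, and the wild-type mice lack the transgene. The series describes duplicate measurements and names no separate animals, so the p-values rest on array-to-array spread that may be technical only. The series asks which hepatic genes change when the oncoproteins are present at a low level for a long time.

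The ribosome has a large subunit, built with Rpl proteins, and a small subunit, built with Rps proteins. Initiation factors (Eif) bring the small subunit and the initiator tRNA to the capped end of an mRNA, and elongation factors (Eef) deliver each further tRNA and move the ribosome along. The 4E-binding proteins compete with eIF4G for the cap-binding protein eIF4E and so block assembly of the cap-binding complex, and the kinase mTOR inactivates them. Many mRNAs of ribosomal proteins and elongation factors begin with a run of pyrimidines, the 5′ terminal oligopyrimidine tract, which makes their translation sensitive to mTOR and the 4E-binding proteins. Growth and division of liver cells are usually accompanied by more ribosome production.

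The sequences around annotated transcription starts are shown for Eif4ebp2, the only member gene past the threshold of the test below. They are also shown for the 3 ribosomal protein and 3 factor genes of highest signal that have a pyrimidine run there. Each is 30 bases on the gene's strand, 10 before the start and 20 from it, from RefSeq on GRCm38.p6, and capitals mark the longest run of at least 7 bases that are each C or T.
Eif4ebp2 (chr10:61452650-61452679, minus strand): cgcagcgggacgaccgggcgagagcaggcg
Rps24 (chr14:24490668-24490697, plus strand): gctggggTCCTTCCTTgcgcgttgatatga
Rplp0 (chr5:115559457-115559486, plus strand): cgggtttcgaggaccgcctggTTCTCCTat
Rpl7a (chr2:26910797-26910826, plus strand): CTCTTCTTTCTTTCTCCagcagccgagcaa
Eef1a1 (chr9:78481705-78481734, minus strand): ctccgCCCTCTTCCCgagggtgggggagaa
Eif3l (chr15:79075213-79075242, plus strand): gagTTCTTCTTCCgctctctcccacgggct
Eif2s3x (chrX:94212632-94212661, minus strand): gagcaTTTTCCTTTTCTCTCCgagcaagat
Such a run was searched on the gene's strand only, and a gene counted if any of its annotated starts had one. It stood in this window for 15 of the 28 ribosomal protein genes in the RefSeq table (53.6%) and 10 of the 36 factor genes (27.8%). Of all 27025 genes in the table, 20.5% had one. The Eif4ebp2 window has none. A run can lie anywhere in the window, as in Rplp0 at an offset of 11 from the start, so it need not be a 5′ terminal tract. An annotated start can lie some bases from the start used in liver. A run is a description of these letters, not a measured site.

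Each value is a MAS5 signal, scaled so that the trimmed mean is the same (250.2) on every array, and a log2 change is PEPCK-TAg minus wild type on log2(signal + 13). Of the 110 probe sets, 74 reached the signal needed for the test, 30 of ribosomal proteins (26 genes) and 44 of factors (37 genes). Because signals are scaled per array, a change shared by the whole RNA pool would not be seen. In whole liver, fewer cells of a type and less RNA per cell cannot be told apart.

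The tissue label was checked on 8 hepatocyte markers, all of them measured, none at a signal of 0 and none past the threshold. Their signals summed to 64796 and 57565 in wild type against 50538 and 44426 in PEPCK-TAg, with groups apart, a median change of -0.38 and 3 genes lower at an unadjusted p under 0.05. Dividing-cell markers were higher in PEPCK-TAg for 10 of 10 measured genes, with summed signals of 1049.6 to 1144 (wild-type) and 7357 to 9587 (PEPCK-TAg). Each sum takes all marker genes of a type on the array, with those not tested, here Bub1. Of 9 measured macrophage and neutrophil markers 4 were higher (Cd14, Cd5l, Clec4f and Mpeg1), with sums of 2661 to 4711 (wild-type) and 9270.3 to 12079 (PEPCK-TAg). Cd68 (0.82) did not pass, and Adgre1, Csf1r, Lyz2 and Marco had overlapping groups. Itgam, Ly6g, S100a8 and S100a9 were below the filter. Of 8 stellate cell and matrix markers 1 was higher (Col3a1), with 2 higher at an unadjusted p under 0.05 and a median of 0.31. Col1a2 (-0.26) and Vim (-0.31) lay below 0 with overlapping groups, and Acta2, Des and Pdgfrb were below the filter. Their signals summed to 3427 and 3297 in wild type against 3482 and 4841 in PEPCK-TAg. Of 4 red blood cell markers 1 was higher, Car2 (2.27), while Alas2 gave -2.01 (limma, Benjamini-Hochberg adjusted p = 0.0968, unadjusted p under 0.05, groups apart) and Hba-a1 -0.52, and the median was -0.15. None of 11 endothelial, 4 B and plasma cell, 1 bile duct and 1 T and natural killer cell markers passed the threshold. Of these, 4, 2, 0 and 0 had an unadjusted p under 0.05. The 4 endothelial genes (Eng, Flt1, Kdr and Ptprb) were lower, and the endothelial median was -0.54. Lyve1 (0.73, groups apart), Cdh5 (0.08) and Pecam1 (0.05) lay above 0. Endothelial signals summed to 3272 and 3512 in wild type against 2082 and 3012 in PEPCK-TAg. Of the 2 B and plasma cell genes, Ms4a1 was lower and Jchain higher. The part of these cell types in the results below was not tested.

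Most of the tested ribosomal protein and translation factor probe sets were measured close to their wild-type levels in PEPCK-TAg liver. By limma with Benjamini-Hochberg adjustment over all 7453 probe sets tested, 0 of 30 ribosomal protein probe sets and 1 of 44 factor probe sets passed an adjusted p of 0.05, where 9.47% of all tested probe sets did. The 1 that passed reads Eif4ebp2, which encodes a 4E-binding protein, and it fell. At an unadjusted p under 0.05 there were 5 ribosomal and 9 factor probe sets, against 26.6% of all tested. Over all tested probe sets 477 were higher (6.40%) and 229 lower (3.07%), a split that became 403 and 409 with arrays centred on their medians, a setting that put the median change over all of them at -0.14.

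The median log2 change was -0.09 for ribosomal proteins, -0.05 for factors and 0.01 for all tested probe sets. The ribosomal median had no stable sign, at 0.036 with quantile normalization and 0.063 with cyclic loess, and it was also above 0 without PEPCK-TAg replicate 2 (0.030). The factor median was above 0 without wild-type replicate 2 (0.018). The ribosomal minus factor difference of medians was -0.04, and became 0.15 with quantile normalization, 0.12 with cyclic loess, 0.07 when wild-type replicate 1 was left out and 0.10 when PEPCK-TAg replicate 2 was. The mean log2 value over the tested ribosomal probe sets was 10.24 and 10.18 in wild type against 10.26 and 10.12 in PEPCK-TAg. For factors it was 8.64 and 8.71 in wild type against 8.60 and 8.62 in PEPCK-TAg. The gap between both families was 1.60 and 1.47 in wild type against 1.66 and 1.49 in PEPCK-TAg, so the groups overlapped.

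The median size of change was smaller in both families than over all tested probe sets, when these were not matched for signal. The median absolute log2 change was 0.14 for ribosomal proteins, 0.21 for factors and 0.28 for all tested probe sets. The measured change exceeded 1 in log2 for 0 ribosomal protein and 1 factor probe sets, where 8.33% of all tested did. The 95% interval of the change lay within a doubling or halving for 27 of 30 ribosomal and 36 of 44 factor probe sets, against 68.1% of all tested. The groups did not overlap for 13 ribosomal and 23 factor probe sets, against 56.5% of all tested probe sets. Among the 910 tested probe sets with a mean signal of at least 1000 the median change was -0.17. It was -0.08 for the 19 ribosomal and -0.32 for the 7 factor probe sets at that signal. The median absolute change there was 0.13 for ribosomal proteins, 0.32 for factors and 0.33 for all 910. All 7 factor probe sets had a change below 0, as had 612 of the 910.

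**Figure D1:**
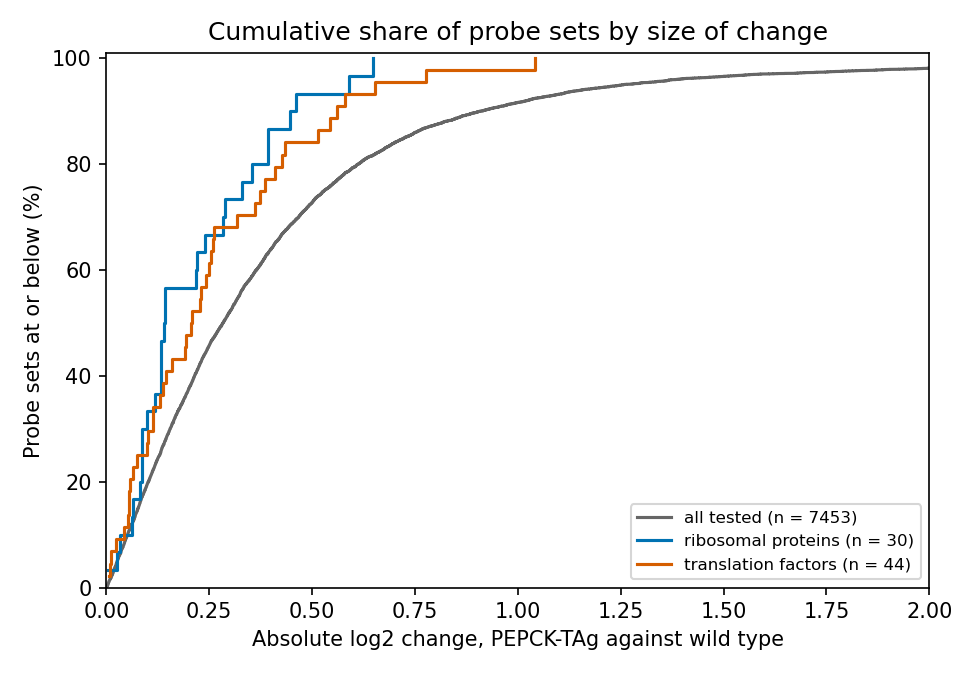
Cumulative share of probe sets (percent, vertical axis) by absolute log2 change between PEPCK-TAg and wild type (horizontal axis), for 7453 tested probe sets, 30 of ribosomal proteins and 44 of translation factors. Above a change of about 0.14, the ribosomal median, both families lie to the left of all tested probe sets, whose median is 0.28.

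**Figure D2:**
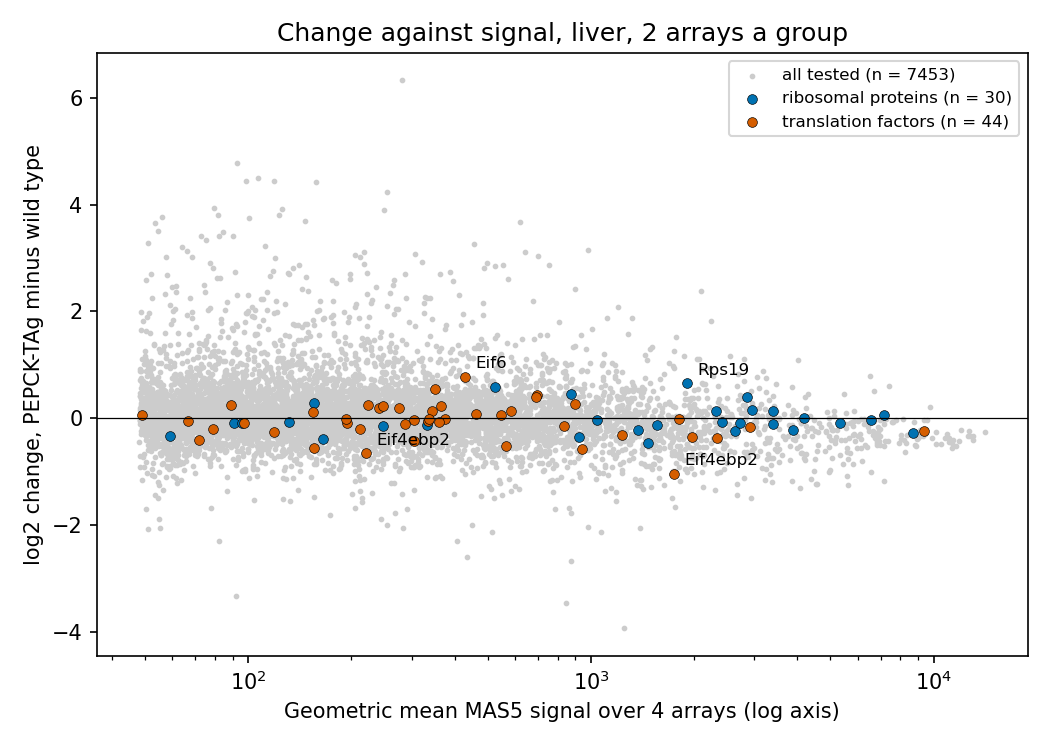
Log2 change, PEPCK-TAg minus wild type, against the geometric mean signal over 4 arrays (log axis), with 1 point per tested probe set. Ribosomal proteins lie between -0.46 and 0.65 and factors between -1.04 (Eif4ebp2) and 0.78 (Eif6).

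Large-subunit proteins had 15 tested probe sets, none past the threshold by limma with Benjamini-Hochberg adjustment, with changes from -0.46 to 0.59 and a median of -0.12. Rplp0, the scaffold of the stalk that recruits elongation factors, had signals of 6909 and 6350 in wild type against 6754 and 6210 in PEPCK-TAg. The groups overlapped, and the change of -0.03 ± 0.13 (SE) had a 95% interval from -0.34 to 0.28. Rpl7a measured 4076 and 4302 in wild type against 3736 and 3466 in PEPCK-TAg, with a change of -0.22 ± 0.13 (limma, Benjamini-Hochberg adjusted p = 0.353). Both PEPCK-TAg arrays lay below both wild-type arrays, by less than the test requires.

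Rpl13a, which is known for a role outside the ribosome in silencing inflammatory mRNAs, had the highest change of the large subunit. Its signals were 398 and 455 in wild type against 764 and 547 in PEPCK-TAg, a change of 0.59 ± 0.21 (limma, Benjamini-Hochberg adjusted p = 0.133). The groups did not overlap, but the PEPCK-TAg arrays were far apart. The lowest change was that of Rpl10a on probe set 161327_f_at, with 1606 and 1854 in wild type against 1381 and 1133 in PEPCK-TAg (-0.46 ± 0.17, adjusted p = 0.148). The other Rpl10a probe set, 100711_at, gave 1052 and 1047 in wild type against 1148 and 924 in PEPCK-TAg, a change of -0.03 with overlapping groups, so the lower signal was not seen by both.

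Rpl41, which encodes a very short basic protein, measured 10016 and 9222 in wild type against 8970 and 6910 in PEPCK-TAg, a change of -0.29 ± 0.16 that was 0.03 at its highest among the alternatives. The probe set of Rpl32 gave a change of -0.39 ± 0.19 (limma, Benjamini-Hochberg adjusted p = 0.240). Rpl22, which also binds viral and cellular RNAs, gave -0.10 and -0.14 on its probe sets 92856_at and 92857_at, both with overlapping groups. Rpl6, Rpl7, Rpl8, Rpl19 and Rpl37a had changes from -0.24 to 0.14. Rpl7l1, a paralog with a role in ribosome assembly, had a log2 change of -0.06.

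Small-subunit proteins also had 15 tested probe sets, none past the limma threshold, with changes from -0.35 to 0.65 and a median of -0.08. Rps19, whose loss causes the anaemia of Diamond-Blackfan, measured 1235 and 1879 in wild type against 2202 and 2607 in PEPCK-TAg. The groups did not overlap, but the wild-type arrays lay 0.60 apart in log2, nearly as far as the group means. The change of 0.65 ± 0.22 had an adjusted p of 0.129 by limma with Benjamini-Hochberg adjustment. Over 14 alternatives the change of Rps19 ran from 0.35 to 0.95, with the highest value when wild-type replicate 2 was left out.

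Rps4x, the X-linked small-subunit gene, measured 2357 and 2643 in wild type against 3510 and 3071 in PEPCK-TAg. The groups lay apart, and the change of 0.39 ± 0.15 did not pass (limma, Benjamini-Hochberg adjusted p = 0.153). The remaining 4 Rps4x probe sets were below the filter, with signals from 4 to 64.7. At these low signals PEPCK-TAg lay below wild type with groups apart on 161654_r_at, 162229_at and 162244_r_at, and 162498_r_at overlapped. Rps28 was read by 3 tested probe sets that differed. Probe set 100758_at gave 713 and 785 in wild type against 1041 and 1008 in PEPCK-TAg, a change of 0.45 ± 0.15 (adjusted p = 0.124), while 98085_f_at gave -0.09 and 98086_r_at -0.33.

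The other small-subunit genes had changes from -0.35 to 0.28. Rps24 had signals of 7238 and 6828 in wild type against 7680 and 7010 in PEPCK-TAg, a change of 0.06 ± 0.13. Rps3, a protein at the mRNA entry of the small subunit, had a log2 change of 0.14 ± 0.14 and Rps3a1 one of 0.13 ± 0.14. Rpsa, which also acts as a laminin receptor, measured 1357 and 801 in wild type against 889 and 744 in PEPCK-TAg, so its change of -0.35 rested on 1 high wild-type array. Rps7, Rps10, Rps18, Rps27 and Rps29 gave changes of -0.13 to -0.08, and Rps4l gave 0.28 ± 0.26 with overlapping groups.

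**Figure D3:**
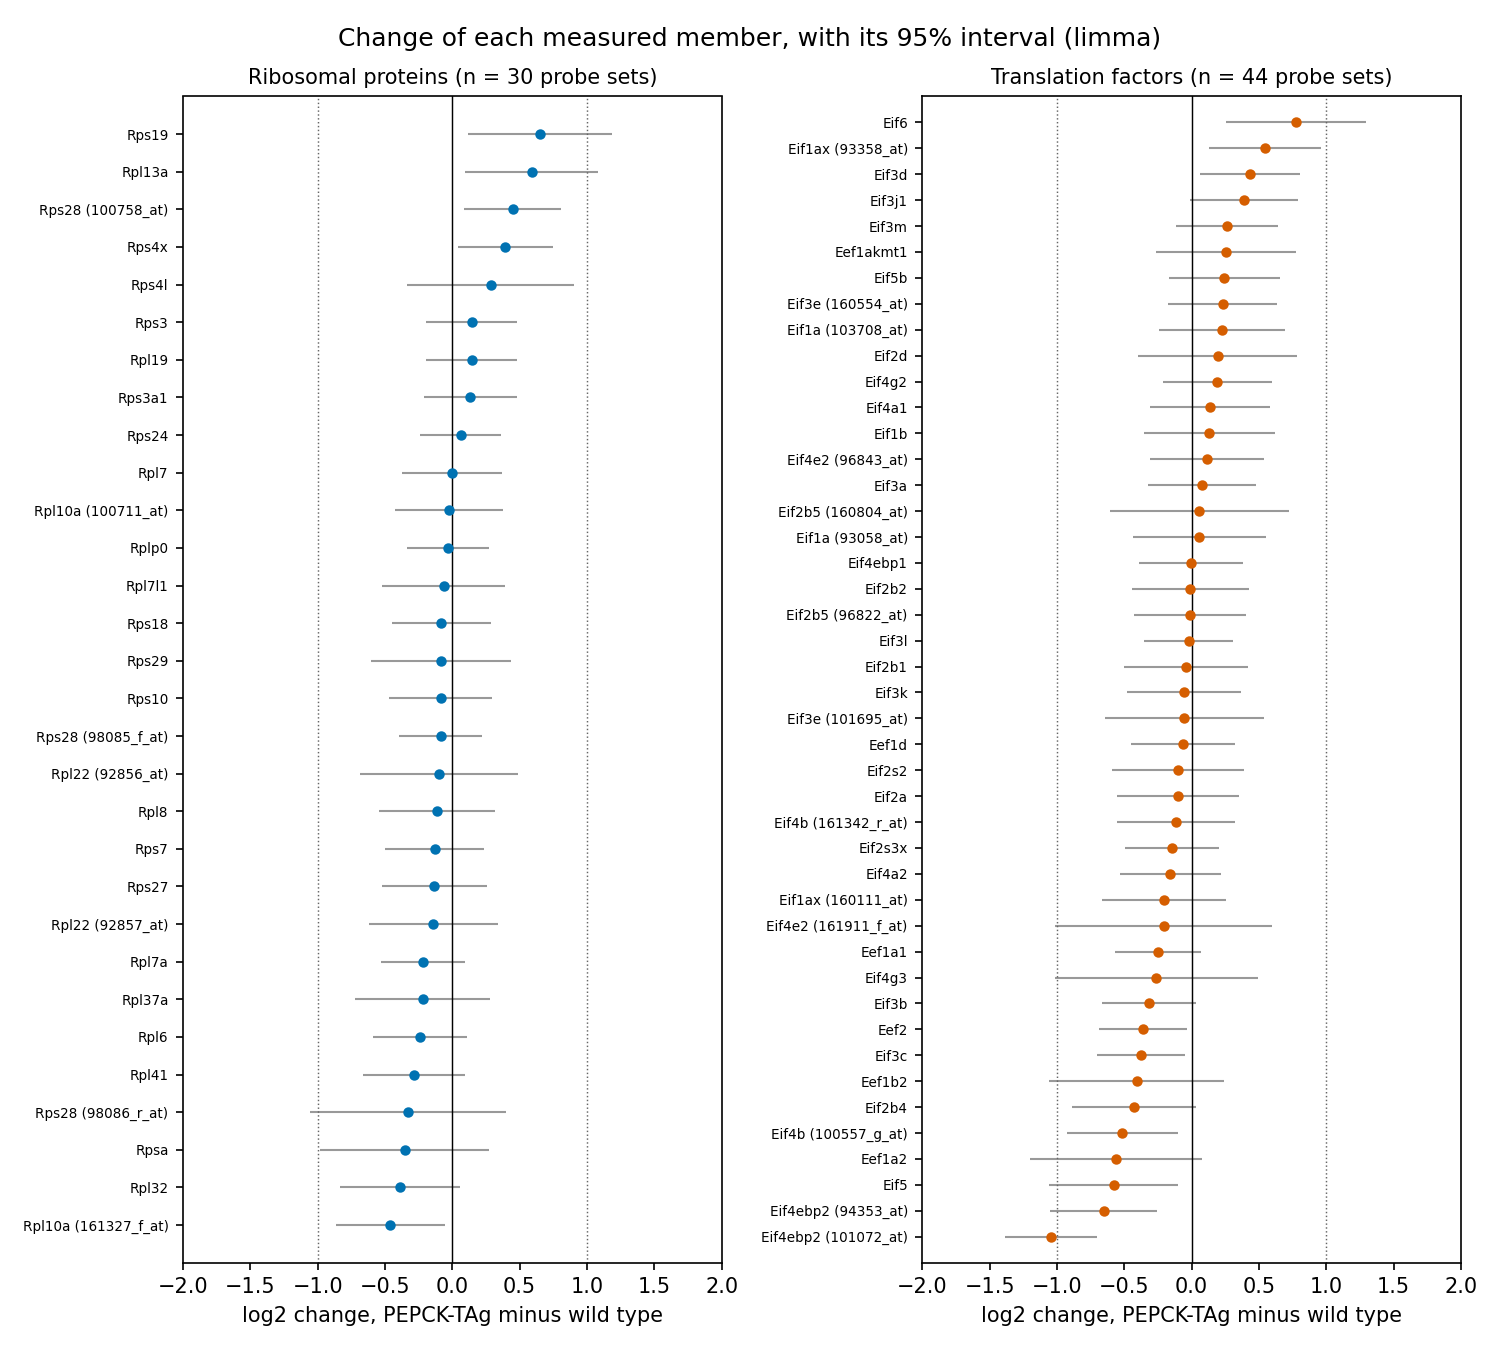
Log2 change, PEPCK-TAg minus wild type, of each tested probe set (points) with its 95% interval from limma (bars), for 30 ribosomal protein probe sets (left) and 44 factor probe sets (right), ordered by change. Dotted lines mark -1 and 1, and the interval of Eif4ebp2 on probe set 101072_at, from -1.38 to -0.70, lies farthest from 0.

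Among the factors 1 of 44 probe sets was lower, where 3.07% of all tested probe sets were, and it was that of Eif4ebp2. Its product binds eIF4E and blocks assembly of the cap-binding complex. Probe set 101072_at gave 2411 and 2604 in wild type against 1171 and 1249 in PEPCK-TAg, or 2507 ± 136 against 1210.2 ± 55.4 (mean ± SD, n = 2). Both PEPCK-TAg arrays lay far below both wild-type arrays. The change was -1.04 ± 0.14 (SE), with a 95% interval from -1.38 to -0.70 and a limma Benjamini-Hochberg adjusted p of 0.00849. It passed under each of 14 alternatives, with changes from -1.19 to -0.92 and adjusted p from 0.00302 to 0.0308, and it ranked 565 of 7453 tested probe sets by size of change.

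A second probe set of the gene, 94353_at, pointed the same way. It gave 275 and 284 in wild type against 179 and 167 in PEPCK-TAg, with groups apart and a change of -0.65 ± 0.17 (limma, Benjamini-Hochberg adjusted p = 0.0586). It passed in 3 of 14 alternatives, with changes from -0.80 to -0.56 over the 14. These 3 were quantile normalization, arrays centred on their medians and the replicate number as a block (limma, adjusted p 0.0423, 0.0349 and 0.0483). The last probe set, 96729_at, had signals of 5.5 to 32.4 and was not tested. Eif4ebp1, the paralog with the same action on eIF4E, measured 333 and 345 in wild type against 352 and 323 in PEPCK-TAg. Its groups overlapped, and its change of -0.01 ± 0.16 had a 95% interval from -0.39 to 0.38. The difference between both paralogs was not tested.

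The eIF4 group had 11 tested probe sets with a median of -0.16. Eif4a2, an RNA helicase that unwinds the start of the mRNA, measured 3391 and 2809 in wild type against 2606 and 2924 in PEPCK-TAg, with overlapping groups. Eif4a1, the other helicase, had a log2 change of 0.14 ± 0.19. Eif4b, which stimulates the helicase, gave 634 and 721 in wild type against 434 and 509 in PEPCK-TAg on probe set 100557_g_at, a change of -0.51 ± 0.17 (limma, Benjamini-Hochberg adjusted p = 0.119), while 161342_r_at gave -0.11 with overlapping groups. The scaffold genes Eif4g2 and Eif4g3 had log2 changes of 0.19 and -0.26. Eif4e2, a cap-binding relative of eIF4E, gave 0.11 and -0.21 on its probe sets. Eif4e itself had signals of 20.9 to 47.8 on 99097_at and was below the filter.

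eIF3, the large complex that joins the small subunit to the mRNA, was read by 10 tested probe sets, none past the limma threshold, with a median of 0.03. Its subunits lay on both sides of 0. The highest change was that of Eif3d, a subunit that can itself bind the cap, with 612 and 584 in wild type against 770 and 856 in PEPCK-TAg (0.43 ± 0.16 by limma, with adjusted p = 0.140). The lowest was that of the core subunit Eif3c, with 2681 and 2636 in wild type against 1977 and 2125 in PEPCK-TAg (-0.37 ± 0.14, adjusted p = 0.147). For both genes the wild-type arrays nearly coincided and the PEPCK-TAg arrays lay apart from them.

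Eif3b, another core subunit, had signals of 1371 and 1378 in wild type against 1150 and 1053 in PEPCK-TAg, a change of -0.32. Eif3j1 (0.39), Eif3m (0.26) and Eif3e on 160554_at (0.23) lay above 0 with groups apart, while Eif3e on 101695_at gave -0.05. Eif3a, Eif3k and Eif3l had overlapping groups, with changes of 0.08, -0.05 and -0.02. Eif3l measured 1818 and 1823 in wild type against 1732 and 1852 in PEPCK-TAg.

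eIF2 carries the initiator tRNA and eIF2B recharges it with GTP, the step that stress kinases slow. Their 9 tested probe sets, with Eif2a and Eif2d, had a median of -0.04 and none passed by limma, with 0 at an unadjusted p under 0.05. Eif2s3x, the gamma subunit of eIF2, measured 887 and 873 in wild type against 791 and 798 in PEPCK-TAg (-0.15 ± 0.15). Eif2s2 had a log2 change of -0.10 ± 0.20. In eIF2B, Eif2b4 gave 333 and 381 in wild type against 230 and 298 in PEPCK-TAg (-0.43 ± 0.19 by limma, with adjusted p = 0.219). Eif2b1, Eif2b2 and Eif2b5 on 96822_at had log2 changes of -0.04, -0.01 and -0.01, and Eif2b5 on 160804_at one of 0.06.

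Scanning factors of the eIF1 and eIF1A type had 5 tested probe sets. Eif1ax gave 265 and 312 in wild type against 403 and 449 in PEPCK-TAg on 93358_at (0.54 ± 0.17, limma Benjamini-Hochberg adjusted p = 0.107), but -0.21 with overlapping groups on 160111_at. The probe sets of Eif1a and Eif1b had log2 changes of 0.06 to 0.23, each with overlapping groups.

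Eif5, Eif5b and Eif6 had 3 tested probe sets, with changes in both directions and none past the limma threshold. Eif6, which keeps the large subunit from joining too early and takes part in its assembly, measured 270 and 389 in wild type against 524 and 608 in PEPCK-TAg. This was the highest change of all members, 0.78 ± 0.22 with a 95% interval from 0.26 to 1.29, and it did not pass (limma, Benjamini-Hochberg adjusted p = 0.0746). Over 14 alternatives the change of Eif6 ran from 0.52 to 1.03, with the highest value when wild-type replicate 2 was left out. Eif5, which triggers GTP hydrolysis by eIF2 at the start codon, measured 1370 and 970 in wild type against 742 and 792 in PEPCK-TAg (-0.58 ± 0.20, adjusted p = 0.129). The Eif5 change ran from -0.83 to -0.33 over 14 alternatives. Eif5b, the GTPase of subunit joining, had a log2 change of 0.24 ± 0.17.

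**Figure D4:**
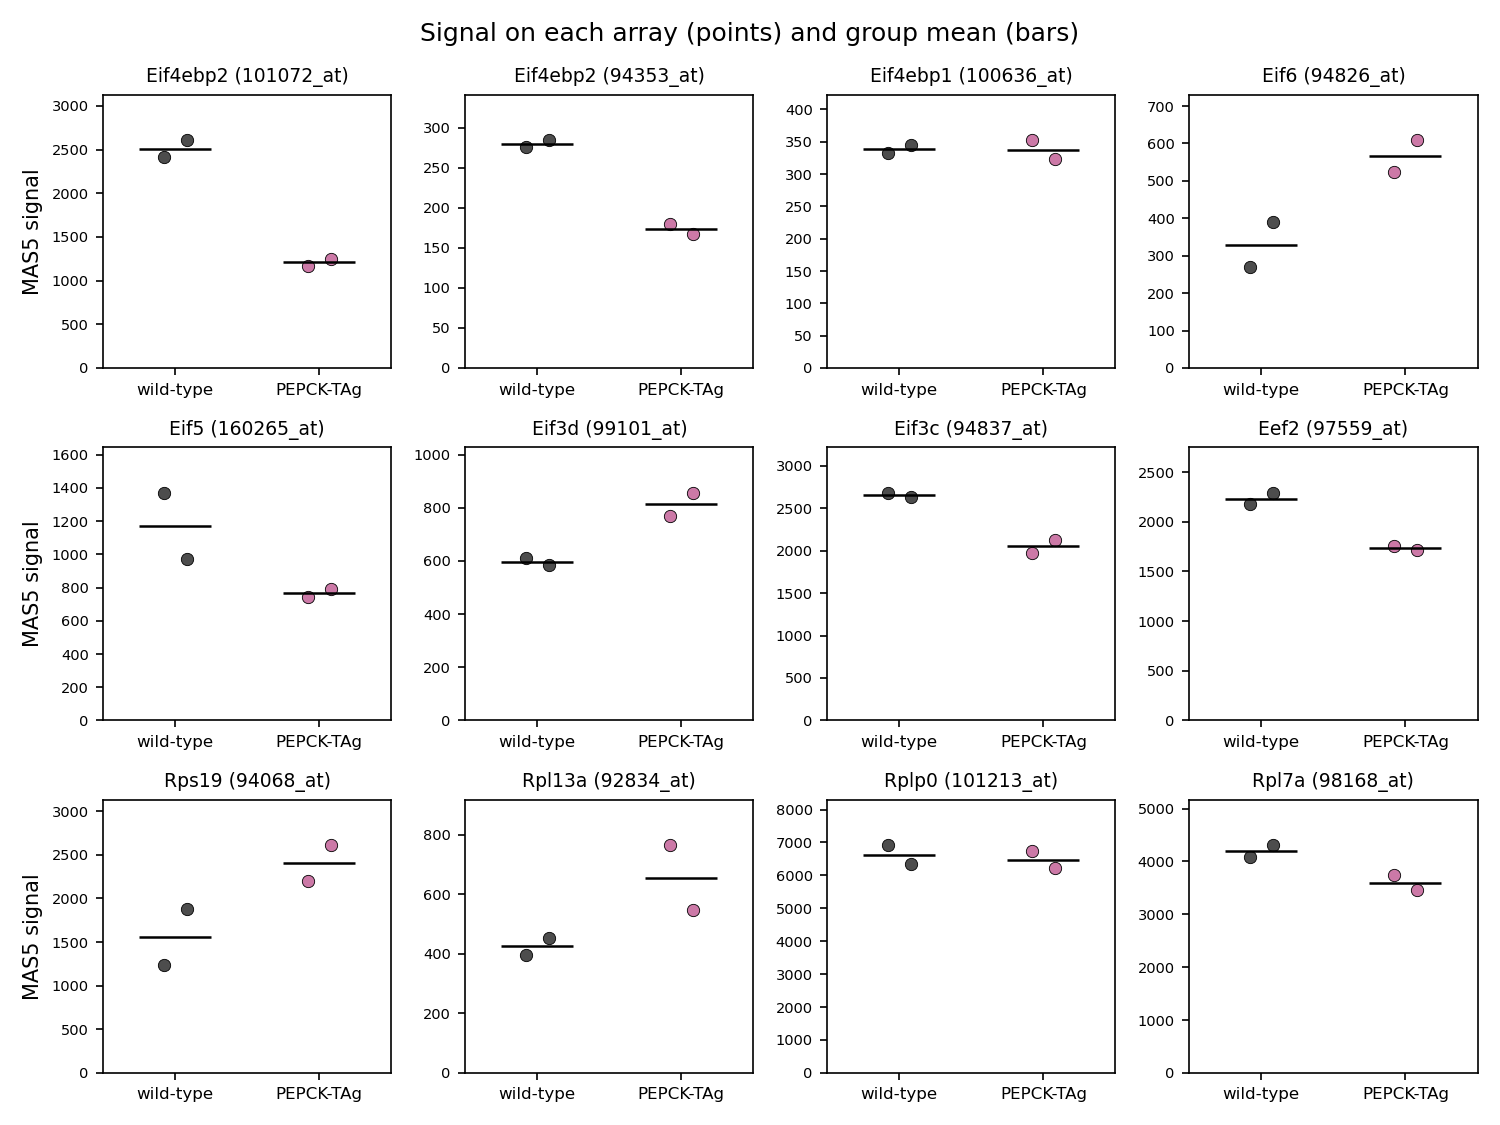
MAS5 signal (vertical axis, from 0) on each of the 2 wild-type and 2 PEPCK-TAg arrays (points) with group means (bars), for 12 member probe sets, each panel on its own scale. The PEPCK-TAg points of Eif4ebp2 on 101072_at, 1171 and 1249, lie far below the wild-type points of 2411 and 2604, while those of Eif4ebp1 and Rplp0 overlap with wild type.

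Elongation factors had 6 tested probe sets, none past the limma threshold, with a median of -0.31. Eef2, the GTPase that moves the ribosome by a codon, measured 2178 and 2290 in wild type against 1752 and 1721 in PEPCK-TAg. The groups lay apart, with a change of -0.36 ± 0.14 and a limma Benjamini-Hochberg adjusted p of 0.157. Eef1a1, which delivers aminoacyl-tRNA, measured 11119 and 9438 in wild type against 8484 and 8740 in PEPCK-TAg (-0.25 ± 0.13), and its change was 0.08 at its highest among the alternatives. Eef1a2, the form typical of muscle and neurons, measured 249 and 146 in wild type against 133 and 119 in PEPCK-TAg, a change of -0.56 ± 0.27 that rested largely on 1 wild-type array. Eef1b2 and Eef1d, subunits of the exchange factor, had log2 changes of -0.41 and -0.06. Eef1akmt1, a methyltransferase of eEF1A that the symbol rule includes, had a log2 change of 0.25.

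The other 36 probe sets, 19 of ribosomal proteins and 17 of factors, were below the filter, and 16 genes had no tested probe set. These genes were Rpl35a, Rpl38, Rpl39, Rpl39l, Rps13, Rps14, Rps15, Rps20, Rps27l, Eif3f, Eif4e, Eif4enif1, Eif4h, Eif5a, Eef1g and Eef2k. A low signal speaks of the probe set as much as of the gene. Rps24, for example, was tested on 97696_r_at, while its probe set 93121_at stayed below the filter with 36.6 to 54.9. No probe set with a single symbol was found for Eif2s1, Eif4g1, Rps6 or Rpl3. For 10 genes several probe sets were tested, and in 5 of these the changes differed in sign. Probe sets with an f, g, i, r or s in their suffix can read related sequence, which matters for ribosomal proteins because of their many processed pseudogenes.

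Other genes of translation were taken from lists of related roles. Of 57 measured mitochondrial ribosomal proteins and 20 cytosolic aminoacyl-tRNA synthetases, 0 passed the limma threshold with Benjamini-Hochberg adjustment, with 6 and 5 genes at an unadjusted p under 0.05, where 9.84% of all 5650 genes tested passed. Their medians were both -0.02. Of 9 termination, recycling and poly(A)-binding factors 1 fell, and of 15 nascent chain factors 1 rose and 1 fell. Of 18 kinases and regulators of translation 1 rose and 2 fell. The 1 ribosomal protein gene under another name, Fau, was below the filter.

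Pdcd4, whose product inhibits the helicase eIF4A, measured 2176 and 1630 in wild type against 1003 and 1082 in PEPCK-TAg, a change of -0.85 ± 0.18 (limma, Benjamini-Hochberg adjusted p = 0.0364). Eif2ak1, the heme-regulated kinase of eIF2, fell by 1.56 ± 0.23 on the log2 scale, from 259 and 215 to 58.7 and 87.1 (adjusted p = 0.0123). Fmr1, which encodes an RNA-binding repressor of translation, rose from 111 and 121 to 266 and 236, by 1.03 ± 0.18 (adjusted p = 0.0188). Both PEPCK-TAg arrays lay on 1 side of both wild-type arrays for each of these genes. Pabpc4, a poly(A)-binding protein gene, fell from 490 and 553 to 306 and 324 (-0.70 ± 0.16, adjusted p = 0.0458). Hspa14, part of a ribosome-associated chaperone, rose from 71.2 and 108 to 211 and 190.3, by 1.08 ± 0.23 (adjusted p = 0.0364), and Srpr, the receptor of the signal recognition particle, fell by 0.66 ± 0.13 on 93757_at (adjusted p = 0.0301), with -0.21 on 103680_at.

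Of 14 alternatives each, Eif2ak1 passed in 13, Fmr1 in 11, Pabpc4 in 8, Pdcd4 in 7, and Hspa14 and Srpr in 6 each. All 6 missed the limma threshold without wild-type replicate 1, with Benjamini-Hochberg adjusted p of 0.0505 for Eif2ak1, 0.0572 for Fmr1, 0.078 for Pabpc4, 0.0897 for Hspa14, 0.0917 for Srpr and 0.109 for Pdcd4. Without PEPCK-TAg replicate 1 the adjusted p was 0.107 for Pdcd4, 0.0885 for Fmr1, 0.165 for Pabpc4, 0.123 for Hspa14 and 0.128 for Srpr. Without PEPCK-TAg replicate 2 it was 0.0729 for Pdcd4, 0.0515 for Fmr1, 0.126 for Pabpc4, 0.0822 for Hspa14 and 0.117 for Srpr. Without wild-type replicate 2 it was 0.122 for Pabpc4 and 0.0698 for Srpr. Hspa14, Pdcd4, Pabpc4 and Srpr also missed it without a filter (0.0572 to 0.0857) and without a variance trend (0.0503 to 0.0777). Hspa14, Pdcd4 and Srpr missed it with quantile normalization (0.051 to 0.0668) and cyclic loess (0.0508 to 0.0625), and Hspa14 with arrays centred on their medians (0.0571).

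**Figure D5:**
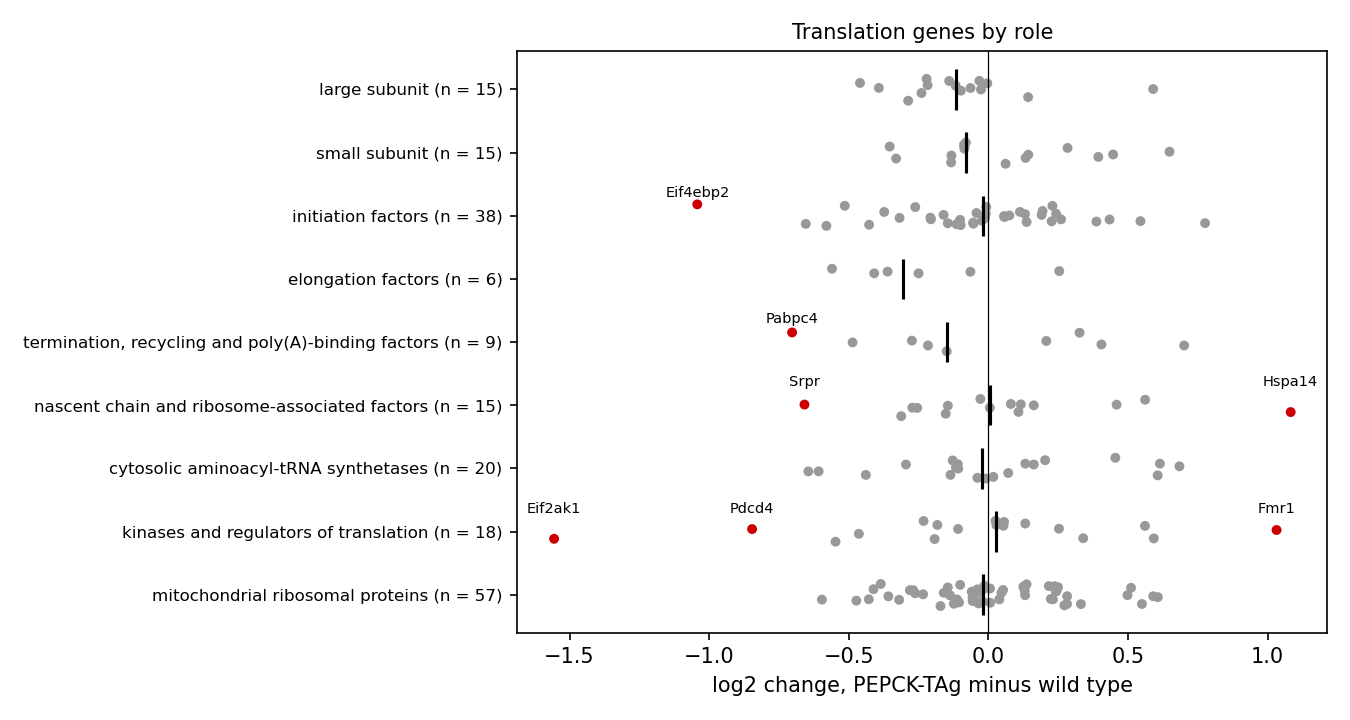
Log2 change, PEPCK-TAg minus wild type, of translation genes by role: each point is a tested probe set (upper 4 rows) or a gene by its brightest probe set (lower 5 rows), with the median as a bar. Red points passed an adjusted p of 0.05 and are named. Eif4ebp2 is the only red point in the upper 4 rows.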

How the data were processed

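The authors deposited linear signal intensities for each probe set, made with MAS5 per the submitters' processing notes. The sources used here do not give its version or scaling target. Symbols came from the platform annotation: of 12422 probe sets without 66 controls, 10833 had 1 symbol, 396 several and 1193 were unnamed here.

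For tests, 13 was added to each signal before taking log2, near 5% of the 2% trimmed mean. Probe sets with a mean log2 value at or above the 40th percentile were tested, a mean signal of at least 48.1. PEPCK-TAg and wild type were compared, two-sided, over all tested probe sets with limma 3.58.1 in R 4.3.3 (lmFit, eBayes with trend, 2 residual and 4.61 prior degrees of freedom) and Benjamini-Hochberg adjustment. An exact permutation test of 2 against 2 cannot go below 0.333 and was not run. The number of arrays limits precision. The procedure was tested on simulated data.

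Members and lists were chosen with earlier results of these data known. Named were members past the threshold, per role the 4 of smallest p and the 2 of highest signal, a set of central factors, genes whose probe sets disagree, and list genes past the threshold. Some further members are named with their changes to account for the families. Lists were counted by gene, by the brightest probe set. Per the array headers, all arrays share 1 hybridisation time and station and each has its own scan time. By these fields alone, no batch holds some of the arrays. Batches of dissection, RNA extraction or labelling are not named in the sample details used here, and their part was not tested. Alternatives changed the offset, filter, normalization, variance model, probe sets, arrays and the replicate block.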

Additional observations from a re-analysis of the deposited data

How the results depend on the processing

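The call of Eif4ebp2 on 101072_at was made under all 14 alternatives, and no named gene that passed changed direction under any. Of 127 alternative values of the counts and medians, 98 stayed within 1.5 times or 1 replicate SD. With quantile normalization 2 factor probe sets were lower, the ribosomal median was 0.036, the factor median -0.12 and their difference 0.15. With median centring 409 of all probe sets and 2 factor probe sets were lower, with medians of -0.23 (ribosomal) and -0.19 (factors). With cyclic loess the ribosomal median was 0.063 and the difference 0.12. The count of lower probe sets was 105 without a filter and 117 without a variance trend. Leaving out 1 array in turn gave 288 to 420 higher and 110 to 143 lower probe sets, 0 to 1 higher ribosomal and 0 to 1 higher factor probe sets. The medians then ran from -0.16 to 0.030 (ribosomal) and -0.096 to 0.018 (factors), and their difference from -0.11 to 0.10. An arm left with 1 array is assumed to vary like the other. With the replicate number as a block, 444 probe sets were lower, with 1 higher ribosomal (Rps19), 1 higher factor (Eif6) and 2 lower factor probe sets (both Eif4ebp2). Deviations of same-numbered arrays correlated with 0.18, but the labels give the arrays only a shared number. The cause of these shifts was not tested.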
